A study of Diospyros kaki with 21 samples.

Results

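The transcripts that still differed between CO2+1-MCP and CK fruit at 4 d in storage were followed in 6 of the 21 libraries of a persimmon (Diospyros kaki, 'Jingmianshi') fruit series. In CO2+1-MCP, mature fruit were kept in air-tight containers for 1 d in high CO2 together with the ethylene antagonist 1-methylcyclopropene (1-MCP). In CK the container held air. Fruit of both groups then stood in air at 20 °C, so that the flesh sampled at 4 d had been out of the gas for 3 d, and each group had 3 biological replicates, lettered A, B and C. The 12 libraries of CO2+1-MCP and CK at 1 d and at 4 d served to compare the days, and the 3 libraries of CO2 at 4 d (high CO2 alone) are quoted beside them. No group with 1-MCP alone enters the comparison, so an effect of CO2 and an effect of 1-MCP cannot be told apart here.

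Astringent persimmons hold soluble condensed tannins, and high CO2 removes the astringency: starved of oxygen, the flesh ferments pyruvate through pyruvate decarboxylase to acetaldehyde, which makes the tannins insoluble, and alcohol dehydrogenase turns acetaldehyde into ethanol. The treatment also hastens softening in many cultivars, in which ethylene takes part. 1-MCP occupies ethylene receptors, so that ethylene is made but hardly perceived, and fruit given both gases lose astringency while staying firm. Plants sense low oxygen through plant cysteine oxidases, which mark group VII ethylene response factors (ERFs) for degradation while oxygen is present.

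The reads were assembled without a genome, so the features are 261970 unigenes that carry no chromosomal position and are known by their hits to NR, KEGG orthology (KO) and Pfam entries. Counts per library lay between 15261878 and 24943140. A single unigene, endochitinase 2, took 15.64% to 15.75% of the counts in CK and 4.39% to 5.2% in CO2+1-MCP at 4 d. Of the 6 libraries, CO2+1-MCP replicate B stood apart: it had counts in 101549 unigenes, against 136530 to 159847 in the other 5, and its Spearman correlation with them was 0.584 to 0.615, against 0.688 to 0.727 among the others. Many unigenes are fragments or alleles of the same gene, and when counts were summed over unigenes with the same KO identifier (KO groups), the correlations of replicate B rose to 0.944 to 0.964, and the others to 0.978 to 0.998. Unigene values are therefore given as deposited FPKM, and KO group values as CPM scaled by TMM. CPM are counts scaled to the library's total over the KO groups tested. That total leaves out unigenes without a KO identifier, so a CPM is not a share of the whole library. Log2 fold changes are CO2+1-MCP over CK with their standard error, from edgeR's quasi-likelihood F test with Benjamini–Hochberg adjusted p.

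At the study's limits (adjusted p under 0.05, more than 5-fold), 114 unigenes were up-regulated in CO2+1-MCP at 4 d, 0.177% of the 64312 tested, and 16 were down-regulated, 0.0249%. In none of these 130 DEGs did the libraries of the groups overlap, which the limits on p and fold nearly require, so it adds no support. In a fit of all 21 libraries, 476 unigenes (0.524% of 90891) were up-regulated and 97 (0.107%) down-regulated, and 119 of the 130 were among them. Of the 3280 KO groups tested, 302 rose (9.21%) and 209 fell (6.37%) at an adjusted p below 0.05, 13 of these by more than 5-fold. A "rise" or "fall" of a KO group below means this call, with no limit on the fold. Scaling decided the balance of the calls: with library size alone and no TMM factor, the median log2 fold change over KO groups moved from 0.01 to 0.30 and the calls to 1068 higher and 84 lower, but no called KO group changed sign. With 3 libraries a side the calls leaned on every library except CO2+1-MCP replicate B. Without CK A, B or C, or CO2+1-MCP A or C, no DEG was left (lowest adjusted p from 0.111 to 0.241), which holds for every DEG named below. None was left with the replicate letter as a block either (edgeR, lowest adjusted p 0.298). Of the 511 KO group calls, 17, 81 and 91 were kept without CK A, B and C, and 186 and 286 without CO2+1-MCP A and C. Without CO2+1-MCP B there were 514 DEGs higher and 525 lower, and 771 and 783 KO groups called, among them all 511 of the KO groups called from 6 libraries. Those 511 kept their direction and an unadjusted p below 0.05 whichever library was left out. They had been chosen from the same libraries, which nearly requires this, so it adds no support. Without a TMM factor, and in the 21-library fit, part of the 511 did not keep an unadjusted p below 0.05 (edgeR).

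What remained at 4 d was compared with what the same treatment had done at 1 d, just out of the gas, in libraries of other fruit. At 1 d, 5515 unigenes were up-regulated (9.26% of 59566) and 4940 down-regulated (8.29%). Of KO groups 1011 rose (31.0% of 3264) and 968 fell (29.7%). For the KO groups that rose at 1 d the median log2 fold change went from 0.75 to 0.14 at 4 d. Of the 997 tested again, 153 (15.3%) rose at 4 d as well and 54 (5.42%) fell. For those that fell at 1 d the median went from −1.0 to −0.07, with 65 of 968 (6.71%) lower and 63 (6.51%) higher at 4 d. The change between days was tested by an interaction contrast in the 12 libraries: the effect moved up in 705 KO groups (21.3% of 3307) and down in 716 (21.7%), and in unigenes by more than 5-fold up in 3706 (4.72% of 78553) and down in 2896 (3.69%).

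**Figure D1:**
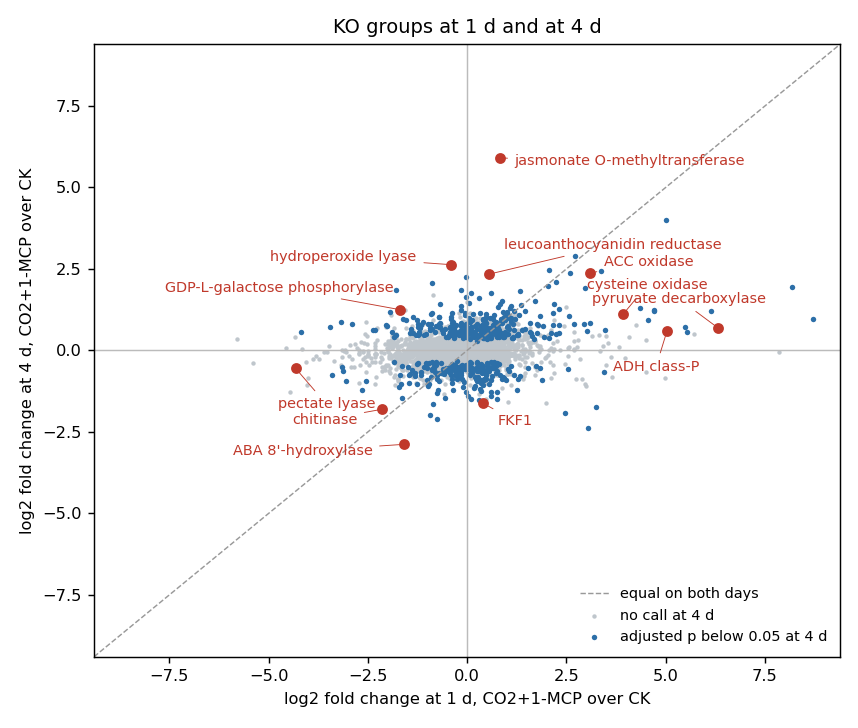
Log2 fold change of CO2+1-MCP over CK for each KO group tested on both days, at 1 d (horizontal) and at 4 d (vertical). Blue points had an adjusted p below 0.05 at 4 d, red points are groups named in the text, and points lie near the dashed line where the effect was equal. Most groups far from 0 at 1 d lie close to 0 at 4 d, pyruvate decarboxylase at 6.32 and 0.69 among them, whereas jasmonate O-methyltransferase is at 0.83 and 5.90.

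Among the 77 KO groups that rose more than 5-fold at 1 d, 24 of the 65 tested still rose at 4 d (36.9%, against 9.21% of all KO groups), with a median of 0.40 after 3.33, the 1 d values having chosen them. Of the 70 that fell more than 5-fold at 1 d, 7 fell (10%, against 6.37% of all) and 5 rose (7.14%, against 9.21%) at 4 d. Of the 114 unigenes up-regulated at 4 d, 60 had been up-regulated at 1 d. The 5 unigenes with the highest log2 fold change at 1 d could hardly be seen 3 d later. They included alcohol dehydrogenase 1 of D. kaki (Cluster-16487.151868), with a log2 fold change of 15.36 at 1 d and 0 FPKM in each of the 6 libraries at 4 d, and the other 4 were at 0 to 1.72 FPKM in those libraries. Probable pectate lyase 18 (Cluster-16487.110990), which had fallen by 6.87 ± 0.41, was at 1069, 1021 and 859 FPKM in CK and 863, 769 and 682 FPKM in CO2+1-MCP at 4 d, a log2 fold change of −0.49 ± 0.18 (adjusted p = 0.321, edgeR). None of the 5 unigenes with the lowest log2 fold change at 1 d passed the test at 4 d, where they lay between −0.86 and 0.29.

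Of the 4 fermentation KO groups, pyruvate decarboxylase and 1 of 2 alcohol dehydrogenases were still higher at 4 d, by far less than at 1 d. Pyruvate decarboxylase (K01568), the entry into ethanol fermentation, stood at 399, 389 and 395 CPM in CK and at 667, 607 and 633 CPM in CO2+1-MCP at 4 d. The groups did not overlap, and the log2 fold change of 0.69 ± 0.08 (adjusted p = 0.00565, edgeR) compared with 6.32 ± 0.32 at 1 d (interaction −5.68 ± 0.32, adjusted p = 1.70e-07). Summed over the 49 unigenes of the list, FPKM at 1 d had been 19643, 16847 and 11172 in CO2+1-MCP against 328 to 406 in CK. Class-P alcohol dehydrogenase (K18857), which reduces acetaldehyde, was at 120.1, 129 and 135 CPM in CK and 192, 155 and 229.9 CPM in CO2+1-MCP, 0.59 ± 0.16 at 4 d (adjusted p = 0.0496, and 0.0566 with the replicate letter as a block) after 5.03 ± 0.25 at 1 d. Replicate B was the lowest treated library, above the highest CK library. The other alcohol dehydrogenase group (K00001) overlapped between groups, at 17 to 21.1 CPM in CK and 14.2 to 23.1 CPM in CO2+1-MCP (0.12 ± 0.22, adjusted p = 0.726). Lactate dehydrogenase (K00016), of the other fermentation route, had a log2 fold change of 0.06 (adjusted p = 0.816). No unigene of the pyruvate decarboxylase list (20 tested, median 0.67) or the alcohol dehydrogenase list (52 tested, median 0.26) was a DEG, where the median over all unigenes was −0.05. With 0.177% of all unigenes up-regulated and 0.0249% down-regulated, a count of 0 in lists of these sizes is near the overall share.

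The oxygen-sensing group followed the same course. Plant cysteine oxidases (K10712) were at 154, 163 and 151 CPM in CK and 359, 253 and 398 CPM in CO2+1-MCP. The lowest treated library was replicate B, still above every CK library, and the rise of 1.11 ± 0.17 (adjusted p = 0.0106) followed 3.93 ± 0.15 at 1 d. Non-symbiotic hemoglobin, which scavenges nitric oxide under low oxygen, had no KO group, and its unigene with the lowest p (Cluster-16487.170566) was at 1.4, 3.37 and 3.39 FPKM in CK and at 22.1, 15.1 and 40.2 FPKM in CO2+1-MCP, without passing the test (3.06 ± 0.53, adjusted p = 0.0787). A unigene with a universal stress protein domain (Cluster-16487.91972), a family often induced by submergence, was a DEG: 28.2, 27.1 and 25.9 FPKM in CK against 365, 284 and 477 FPKM, 3.65 ± 0.19 (adjusted p = 0.0178). It was the only DEG of its list of 97 tested unigenes, where 0.177% of all unigenes were up-regulated.

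Glycolysis, which supplies the pyruvate, was higher at some steps. Of 10 KO groups, 6 rose and none fell, where 9.21% of all KO groups rose and 6.37% fell. The 6 were aldolase, triosephosphate isomerase, glyceraldehyde 3-phosphate dehydrogenase, phosphoglycerate kinase, enolase and the pyrophosphate-dependent phosphofructokinase. Phosphoglycerate kinase (K00927) was at 1087, 1176.3 and 1091 CPM in CK and 1778.5, 2125 and 1915 CPM in CO2+1-MCP (0.79 ± 0.10, adjusted p = 0.00689), and the rises of the 6 lay between 0.45 and 0.81 after 1.58 to 3.02 at 1 d. All 6 differed between the days (interaction adjusted p from 2.06e-05 to 0.00389). Hexokinase (−0.24), ATP-dependent phosphofructokinase (0.24), glucose-6-phosphate isomerase (0.15) and pyruvate kinase (−0.01) passed no test, nor did sucrose synthase (0.14) or invertase (0.18). Fructokinase (K00847), chosen after its values were seen, was at 119, 123 and 120.2 CPM in CK and 273, 276 and 250.5 CPM in CO2+1-MCP (1.14 ± 0.09, adjusted p = 0.00308). Beyond glycolysis, the malate dehydrogenase groups K00025 and K00026 rose (0.85 ± 0.15 and 0.67 ± 0.15), as did glutamate decarboxylase (K01580, 0.42 ± 0.09, adjusted p = 0.0253), which makes GABA, and GABA:pyruvate transaminase (K16871, 0.68 ± 0.13, adjusted p = 0.0212). Both GABA calls were lost with the replicate block (edgeR adjusted p = 0.0538 and 0.0505), and so was the pyrophosphate-dependent phosphofructokinase (0.0681). The unigenes of the GABA and alanine list did not rise with these groups. Over the 35 tested the median was −0.07, against −0.05 over all unigenes, and the only DEG was lower. Leaving out CK A, B or C raised the adjusted p of the fermentation and glycolysis groups to at most 0.196, and pyruvate decarboxylase reached 0.167 in the 21-library fit. Fructokinase stayed below 0.05 whichever library was left out.

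**Figure D2:**
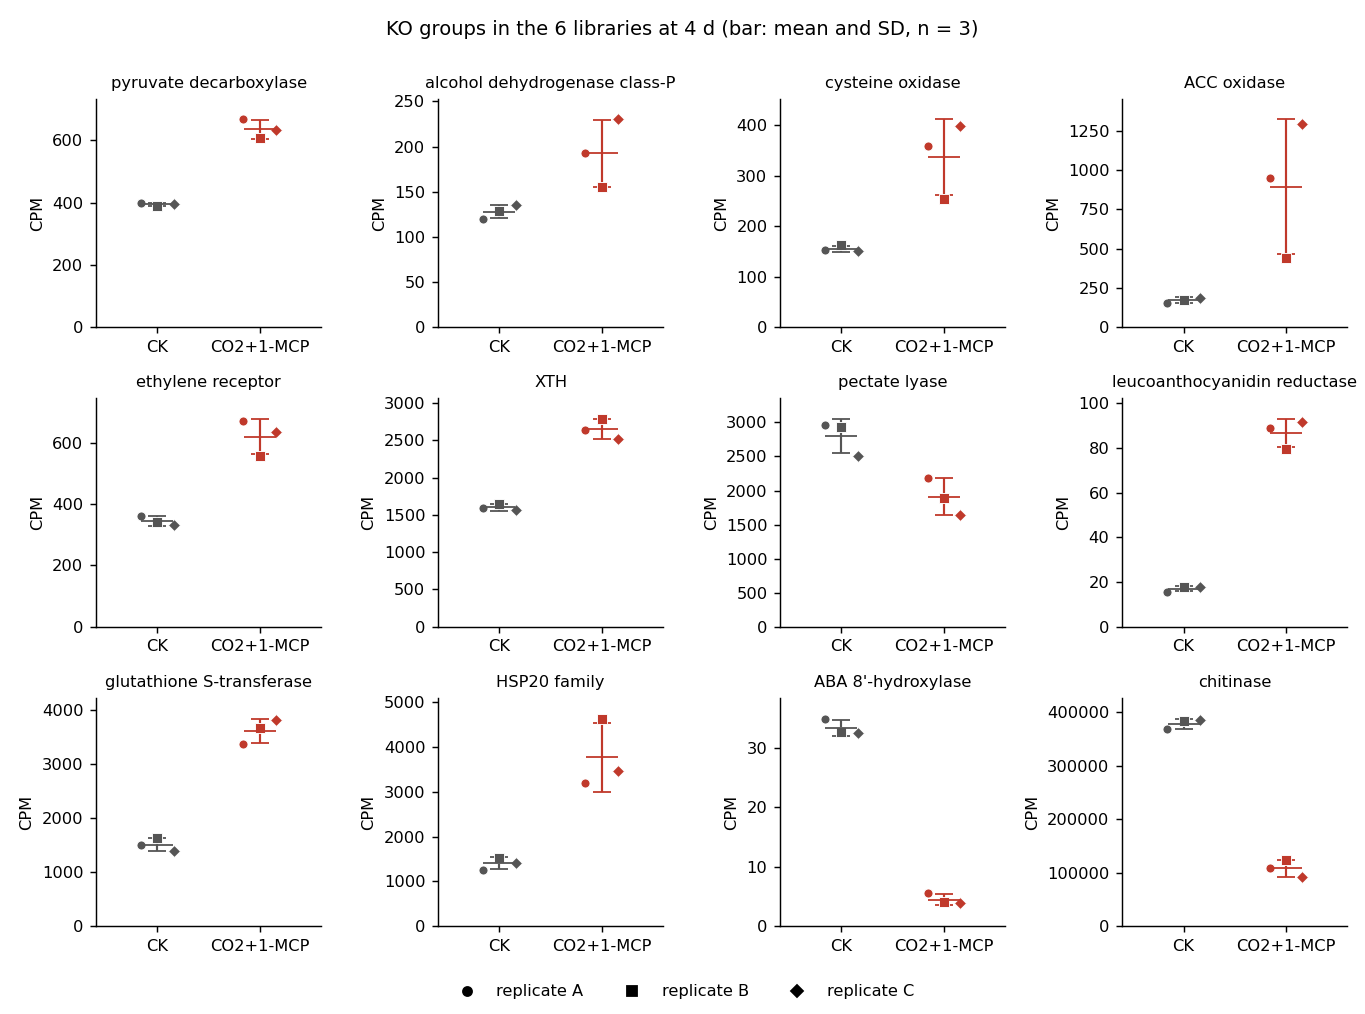
CPM of 12 KO groups in each library at 4 d (points, one symbol per replicate letter) with the mean and SD of 3 libraries, on axes that start at 0. These 12 were chosen among the groups called at 4 d. That the CK and CO2+1-MCP libraries do not overlap in any panel is therefore only a description. Pectate lyase, ABA 8'-hydroxylase and chitinase are lower in CO2+1-MCP and the other 9 are higher, and replicate B is the lowest treated library for ACC oxidase at 443 CPM.

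Ethylene synthesis differed at its last step and in the opposite sense at the step before. ACC oxidase (K05933), which makes ethylene from ACC, was at 153, 177 and 189 CPM in CK and 947, 443 and 1293 CPM in CO2+1-MCP. The rise of 2.37 ± 0.37 (adjusted p = 0.0108) was not distinguished from the 3.08 ± 0.12 of 1 d (interaction −0.76 ± 0.39, adjusted p = 0.141), and CO2 against the same CK libraries gave 2.63 ± 0.45. Its leading unigene (Cluster-16487.134130) was a DEG at 66.7, 77 and 95.6 FPKM in CK and 754, 413 and 1069 FPKM in CO2+1-MCP. ACC synthase (K01762), which makes ACC and is usually the limiting step, was at 34.9, 43.3 and 43.3 CPM in CK and 27.6, 22.2 and 24.2 CPM in CO2+1-MCP, a fall of −0.71 ± 0.14 (adjusted p = 0.0227) that was lost with the replicate block (0.0545), in the 21-library fit (0.136) and without TMM (0.0928). CO2 alone stood at 2.77 ± 0.49 against the same CK.

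Ethylene receptors (K14509), negative regulators whose genes respond to ethylene themselves, were at 362, 342 and 332 CPM in CK and 669, 557 and 633 CPM in CO2+1-MCP. The rise of 0.84 ± 0.10 (adjusted p = 0.00565) had been a fall of −0.69 ± 0.16 at 1 d, and the interaction was 1.48 ± 0.21 (adjusted p = 0.000145). With CO2 alone the value was 2.58 ± 0.29. Ethylene receptor 3 of D. kaki (Cluster-16487.122272) moved in the same way, from 30.9, 27.6 and 28.9 FPKM to 94.3, 62.4 and 91 FPKM (1.34 ± 0.16, adjusted p = 0.0481), below the 5-fold limit of a DEG. The later components CTR1, EIN2, EIN3 and EIN3-binding F-box protein had log2 fold changes from −0.21 to 0.03, none with a call.

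Of the transcription factors downstream, ERF1 (K14516), an activator of defence genes, rose from 2.32, 2.27 and 2.22 CPM in CK to 7.02, 12.9 and 6.94 CPM in CO2+1-MCP. The log2 fold change of 1.97 ± 0.32 (adjusted p = 0.0117) was about that of 1 d (2.03 ± 0.22, interaction −0.14 ± 0.40, adjusted p = 0.812), with 4.44 ± 0.66 in CO2 alone. RAV-like factors (K09287) rose by 0.83 ± 0.20 (adjusted p = 0.0379) after 3.10 ± 0.27. The largest ERF group (EREBP-like, K09286), with 2503 to 2747 CPM in CK and 2144 to 3307 CPM in CO2+1-MCP, overlapped between groups (0.01 ± 0.17, adjusted p = 0.97) after 2.06 ± 0.12 at 1 d (interaction −2.11 ± 0.20, adjusted p = 8.84e-06). No AP2/ERF unigene (180 tested), no NAC (136), no MYB (186) and no bZIP (115) was a DEG, which at 0.177% and 0.0249% of all unigenes is near the overall share, and the D. kaki ERF and NAC hits passed no test at 4 d. WRKY transcription factor 70 (Cluster-16487.61771), which links salicylate and jasmonate signals in Arabidopsis, was the single WRKY DEG among 113 tested, at 1.65, 1.36 and 1.75 FPKM in CK and 16.7, 9.58 and 18.4 FPKM in CO2+1-MCP (3.06 ± 0.30). WRKY33 (K13424) fell by −0.48 ± 0.09 (adjusted p = 0.0182, and 0.258 in the 21-library fit) after a rise of 1.73 ± 0.37 at 1 d. Leaving out CK A raised the adjusted p of the ethylene-related groups called to between 0.0509 (ethylene receptor) and 0.163 (RAV-like), and leaving out CK B or C raised it above 0.05 for each of them except the receptor.

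Cell wall enzymes did not move as a block. Xyloglucan endotransglucosylase/hydrolases (XTH, K08235), which cut and rejoin xyloglucan, were at 1593, 1645.5 and 1559 CPM in CK and 2631, 2783 and 2517 CPM in CO2+1-MCP, a rise of 0.73 ± 0.09 (adjusted p = 0.00584). CO2 alone reached 3.60 ± 0.49 over the same CK. The second XTH group, TCH4 (K14504), went the other way, from 507, 497 and 493 CPM to 261, 358 and 239.6 CPM (−0.80 ± 0.16, adjusted p = 0.022). XTH 10 of D. kaki (Cluster-16487.115103) was the most abundant XTH unigene, at 134.1, 129.7 and 123 FPKM in CK and 666, 637 and 641 FPKM in CO2+1-MCP (2.19 ± 0.14, adjusted p = 0.0178), just under the 5-fold limit. It had been lower at 1 d (−2.36) and stood at 6.19 in CO2 alone. The XTH DEGs were XTH 11 (Cluster-16487.128865, 2.68 ± 0.26) and a D. kaki XTH at 6.19, 7.23 and 7.14 FPKM in CK and 75.9, 35.8 and 92.5 FPKM in CO2+1-MCP (Cluster-16487.93331, 3.13 ± 0.33). Over all 76 XTH unigenes tested, these 2 DEGs included, 30 were above 0 (39.5%, against 47.2% of all unigenes) and the median was −0.32. Of all unigenes 0.177% were up-regulated.

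Pectin enzymes split by kind. Polygalacturonase, which cleaves pectate, had 2 DEGs among 65 tested unigenes, both higher, where 0.177% of all unigenes were up-regulated. Cluster-16487.99208 was at 7.63, 8.86 and 9.5 FPKM in CK and 77.1, 61.3 and 103 FPKM in CO2+1-MCP (3.05 ± 0.21, edgeR adjusted p = 0.0178). The other DEG, Cluster-16487.129402, rose by 2.36 ± 0.20. Cluster-16487.107096, at 54.9, 57.7 and 49 FPKM against 258, 227 and 245 FPKM, rose by 2.02 ± 0.14, with 5.59 in CO2 alone. The 2 polygalacturonase KO groups had no call. Pectinesterases (K01051), which remove methyl groups so that pectin can be cut or cross-linked, fell from 5112, 6385 and 6674.5 CPM to 3874, 3917 and 2970.1 CPM (−0.76 ± 0.16, adjusted p = 0.0268, and 0.0524 with the replicate block). Pectinesterase 4 of D. kaki (Cluster-16487.72276) was lower at 5.12, 4.11 and 5.53 FPKM than the 17.5 to 21.1 FPKM of CK (−2.15 ± 0.21, adjusted p = 0.0275).

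Pectate lyase (K01728) and mannanase (K19355), the wall groups lowest at 1 d (−4.32 ± 0.23 and −3.13 ± 0.23), had come most of the way back. Pectate lyase was at 2955, 2932.5 and 2513 CPM in CK and 2187, 1895.5 and 1644 CPM in CO2+1-MCP, still a fall of −0.55 ± 0.14 (adjusted p = 0.0405), with an interaction of 3.71 ± 0.27 (adjusted p = 1.19e-06). Mannanase fell by −0.62 ± 0.14 (adjusted p = 0.0336). Rhamnogalacturonan endolyase (K18195), which opens branched pectin, rose from 83.3, 80.3 and 92.6 CPM to 143, 129 and 147.5 CPM (0.71 ± 0.11, adjusted p = 0.0101), where CO2 alone gave 6.34 ± 0.57. α-N-Arabinofuranosidase (K01209, chosen after its values were seen), which trims arabinan side chains, rose by 1.17 ± 0.21 (adjusted p = 0.0156) after a fall of −1.95 ± 0.18 at 1 d. Expansin-A8 (Cluster-16487.119705), a wall-loosening protein, was at 50.1, 51 and 44.2 FPKM in CK and 4.79, 6.75 and 2.48 FPKM in CO2+1-MCP (−3.48 ± 0.45). By edgeR it was down-regulated in the 21-library fit (adjusted p = 0.00258) but not in the 6-library fit (0.0518). It had been lower still at 1 d (−6.63, interaction 3.10, adjusted p = 0.0133). β-Galactosidase (K01190, −0.64, adjusted p = 0.0855) and endoglucanase (K01179, 1.12, adjusted p = 0.0915) had no call. In the 21-library fit XTH (adjusted p = 0.136), pectate lyase (0.26), mannanase (0.0985) and rhamnogalacturonan endolyase (0.171) were not called, and without TMM pectate lyase (0.177) and mannanase (0.0535) were not. Leaving out CK A raised every wall group called above 0.05, up to 0.177 for pectate lyase, and leaving out CK B raised pectinesterase to 0.119.

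**Figure D3:**
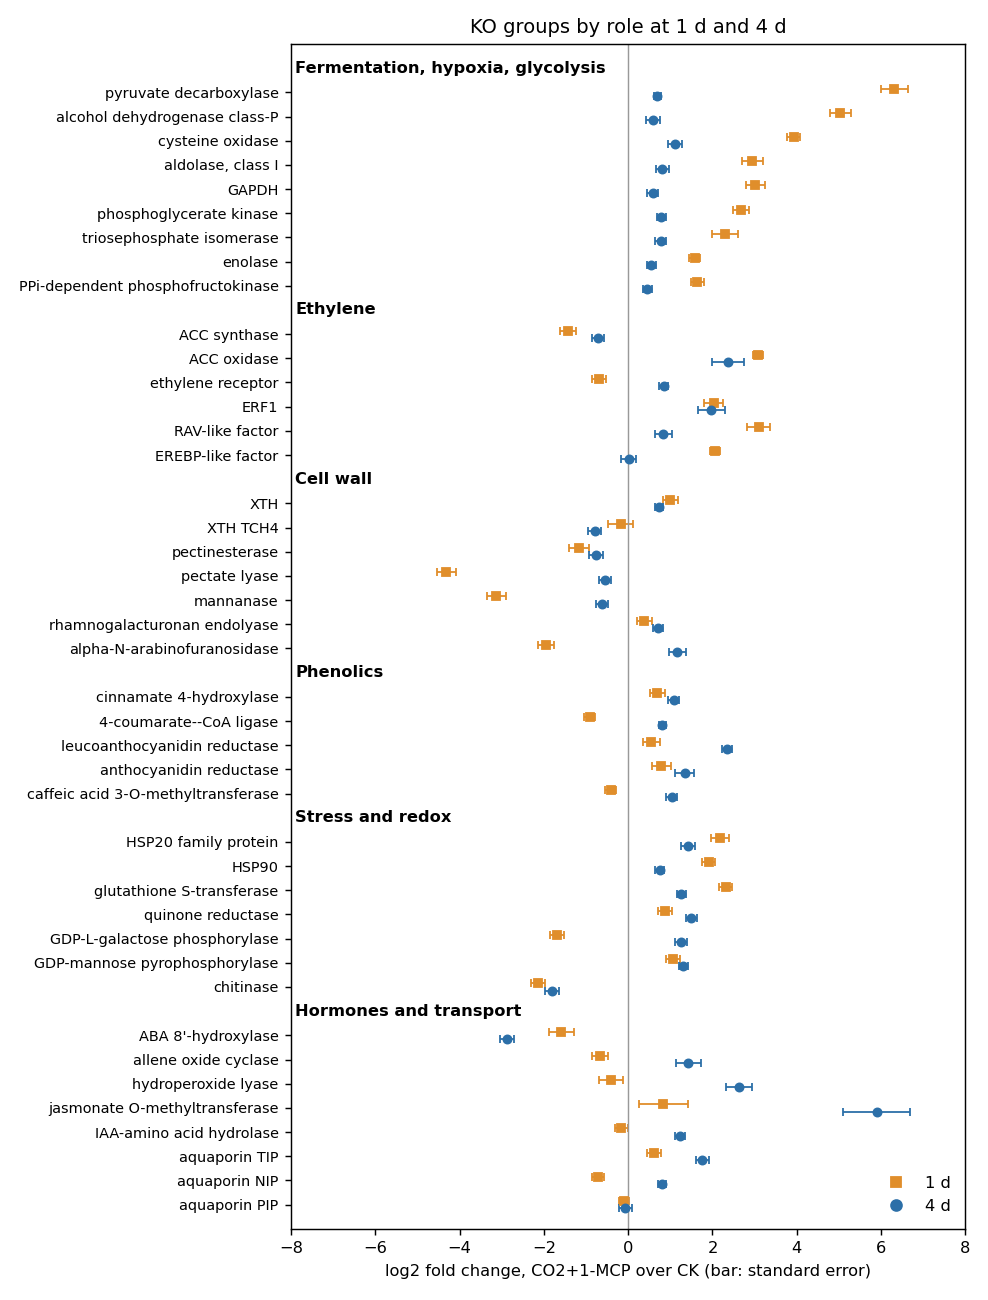
Log2 fold change of CO2+1-MCP over CK for KO groups by role, at 1 d (orange squares) and 4 d (blue circles), with standard errors. Pyruvate decarboxylase, class-P alcohol dehydrogenase and the 6 glycolysis groups drawn, those called at 4 d, lie between 1.58 and 6.32 at 1 d and between 0.45 and 0.81 at 4 d. GDP-L-galactose phosphorylase, 4-coumarate--CoA ligase and ethylene receptor lie on opposite sides of 0 on the 2 days.

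Of the 10 KO groups that build condensed tannins and their precursors, 4 rose at 4 d and the others had no call. Of all KO groups 9.21% rose, and of all unigenes 0.177% were up-regulated. Leucoanthocyanidin reductase (LAR, K13081), which releases catechin units, was at 15.7, 17.9 and 17.8 CPM in CK and 89.1, 79.7 and 91.5 CPM in CO2+1-MCP. The treated libraries lay within 12 CPM of each other, and the rise of 2.34 ± 0.12 (adjusted p = 0.00113) was the lowest p of all KO groups and larger than at 1 d (0.55 ± 0.21, interaction 1.73 ± 0.25, adjusted p = 0.000187). CO2 alone stood at 3.53 ± 0.32. Its D. kaki unigene (Cluster-16487.66536), from 6.56, 7.44 and 7.35 FPKM to 44.1, 34.8 and 44.6 FPKM, was the only DEG among 55 tested members of the flavonoid list. Anthocyanidin reductase (K08695), which makes epicatechin, rose from 8.01, 8.74 and 7.76 CPM to 17.3, 27.3 and 17.6 CPM (1.34 ± 0.22, adjusted p = 0.0121).

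In the general phenylpropanoid steps, cinnamate 4-hydroxylase (K00487) rose by 1.08 ± 0.13 and 4-coumarate--CoA ligase (K01904) by 0.81 ± 0.09 (adjusted p = 0.00552 and 0.00503). The ligase was at 238, 247.5 and 259 CPM in CK and 460.2, 428 and 421 CPM in CO2+1-MCP, and it had been lower at 1 d (−0.91 ± 0.13, interaction 1.66 ± 0.16, adjusted p = 1.00e-05). The 6 groups of the flavonoid list with no call (phenylalanine ammonia-lyase, chalcone synthase and isomerase, flavanone 3-hydroxylase, flavonoid 3'-hydroxylase, dihydroflavonol reductase) lay between −0.17 and 0.91. Caffeic acid O-methyltransferase (K13066), of lignin synthesis, rose from 18, 19.8 and 16.5 CPM to 35.1, 40.1 and 36 CPM (1.03 ± 0.13, adjusted p = 0.00565) after −0.41 ± 0.13 at 1 d. LAR stayed below an adjusted p of 0.05 whichever library was left out, while without CK A the other 4 groups reached 0.0509 to 0.08.

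Among redox genes, glutathione S-transferases (K00799), which conjugate glutathione to reactive compounds and carry flavonoids to the vacuole, were at 1495, 1629 and 1398 CPM in CK and 3362, 3666 and 3804 CPM in CO2+1-MCP. The rise of 1.26 ± 0.11 (adjusted p = 0.0033) was smaller than at 1 d (2.31 ± 0.15, interaction −1.11 ± 0.18, adjusted p = 0.000362), and it held whichever library was left out. The list had 6 DEGs among 155 tested unigenes, all higher (0.177% of all unigenes were), with a median of 0.31 over the list and −0.05 over all unigenes. The most abundant (Cluster-16487.103926) was at 113, 123.5 and 102 FPKM in CK and 1082, 733 and 1452 FPKM in CO2+1-MCP (3.10 ± 0.23), and it was not different at 1 d (0.45, adjusted p = 0.159, interaction 2.60). Cluster-16487.24216, of the tau class, went from 0.17, 0.18 and 0.27 FPKM to 17.4, 9.28 and 26.5 FPKM (6.15 ± 0.55), and Cluster-16487.168446 rose by 3.52 ± 0.25.

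For ascorbate synthesis and recycling, 9 KO groups were gathered by description after their values were seen. Of these 3 rose at 4 d and 1 fell, where 9.21% of all KO groups rose and 6.37% fell. The 9 include S-(hydroxymethyl)glutathione dehydrogenase / alcohol dehydrogenase (K00121, 0.29, no call), which matched by its name only. GDP-L-galactose phosphorylase (K14190), a main control point of ascorbate synthesis, was at 862, 903 and 922 CPM in CK and 1912, 2538 and 1931 CPM in CO2+1-MCP, 1.25 ± 0.14 at 4 d (adjusted p = 0.00503) after −1.69 ± 0.17 at 1 d (interaction 2.88 ± 0.23, adjusted p = 2.07e-06). CO2 alone gave 0.23 ± 0.31 at 4 d. Mannose-1-phosphate guanylyltransferase (K00966), earlier on the same path, rose from 682, 729.7 and 787 CPM to 1771, 1979 and 1713 CPM (1.31 ± 0.11, adjusted p = 0.00321), and monodehydroascorbate reductase (K08232), which recycles ascorbate, by 0.71 ± 0.09. The guanylyltransferase had been higher at 1 d already (1.07, interaction adjusted p = 0.503). L-Galactose dehydrogenase (K17744), a later step of the path, went the other way, from 412, 461 and 416 CPM to 226.0, 309 and 235 CPM (−0.74 ± 0.14, adjusted p = 0.0196) after 0.47 ± 0.11 at 1 d (interaction −1.28 ± 0.17, adjusted p = 0.000121). The other 5 lay between −0.03 and 0.42. The next 2 groups were also chosen after their values were seen. The quinone reductase group (K03809) rose from 814.2, 907 and 839.8 CPM to 2352, 2032 and 2857 CPM (1.5 ± 0.14, adjusted p = 0.00429), and formate dehydrogenase (K00122), a mitochondrial enzyme of stressed tissue, from 693, 720.2 and 710 CPM to 1946.5, 1746.5 and 2347 CPM (1.51 ± 0.13, adjusted p = 0.0033). Of the antioxidant list, the superoxide dismutase group K04564 (0.55 ± 0.12) rose. So did ascorbate peroxidase (K00434, 0.41 ± 0.11, edgeR adjusted p = 0.0496, and 0.0541 with the replicate block). Catalase and copper-zinc superoxide dismutase did not pass (0.24 and 0.26). Without CK A the adjusted p was 0.0509 for GDP-L-galactose phosphorylase and quinone reductase, 0.062 for monodehydroascorbate reductase, 0.0944 for L-galactose dehydrogenase, 0.155 for the dismutase and 0.207 for the peroxidase, whereas the guanylyltransferase and formate dehydrogenase were called in every case.

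Small heat shock proteins, chaperones that hold unfolded proteins, were higher as a KO group and in 5 DEGs. The HSP20 group (K13993) was at 1265, 1532.5 and 1414 CPM in CK and 3197, 4629.8 and 3464.5 CPM in CO2+1-MCP, and it rose by 1.42 ± 0.17 (adjusted p = 0.00552) after 2.18 ± 0.21 at 1 d (interaction −0.81 ± 0.27, adjusted p = 0.0289). Of 79 tested unigenes 64 were above 0 (81.0%, against 47.2% of all unigenes), and the median was 1.27. The 5 DEGs were all higher, where 0.177% of all unigenes were up-regulated. Cluster-16487.94605 went from 3.42, 3.92 and 4.02 FPKM to 37.4, 39.1 and 54.7 FPKM (3.37 ± 0.23). The unigenes numbered next, Cluster-16487.94606 and Cluster-16487.94607, rose by 2.35 ± 0.17 and 2.64 ± 0.19. Whether they are fragments or alleles of the same gene was not tested. Cluster-16487.193122, with an Hsp20 domain, was at 0, 0.09 and 0.14 FPKM in CK and 179, 41.2 and 337 FPKM in CO2+1-MCP. HSP90 (K04079) rose by 0.75 ± 0.11 (adjusted p = 0.00811), whereas cytosolic HSP70 (K03283, 0.33) had no call. A heat stress transcription factor A-1 unigene (Cluster-16487.127412) was lower, at 31.4, 28.4 and 35.3 FPKM against 63.3 to 67 FPKM (−1.19 ± 0.13, adjusted p = 0.0389). Without CK A the adjusted p of HSP20 was 0.0509 and that of HSP90 0.0711.

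**Figure D4:**
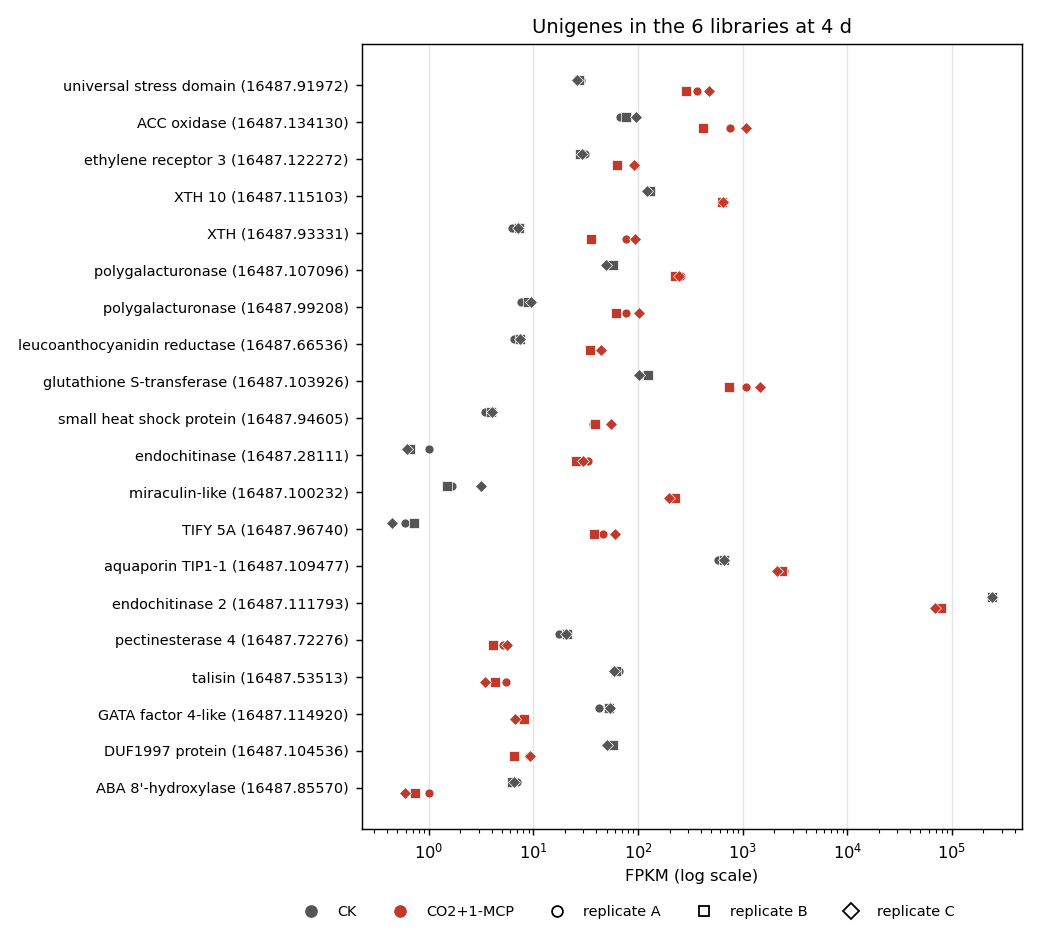
FPKM of 20 unigenes named in the text in each library at 4 d, on a log scale, in CK (grey) and CO2+1-MCP (red), one symbol per replicate letter. The 14 at the top are higher and the 6 at the bottom lower in CO2+1-MCP, with no overlap between groups, which was a condition for naming some of them. Endochitinase 2, at 242548 to 243411 FPKM in CK, lies more than 5 orders of magnitude above ABA 8'-hydroxylase in CO2+1-MCP.

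Chitinases, which break fungal chitin and in fruit can accumulate as storage-like proteins, made up the largest single difference in reads. The chitinase group (K01183) was at 368292, 383967 and 385299 CPM in CK and 108835, 124782 and 91757 CPM in CO2+1-MCP, a fall of −1.81 ± 0.17 (adjusted p = 0.00429, and 0.0509 without CK A) as at 1 d (−2.14 ± 0.17, interaction 0.28 ± 0.20, adjusted p = 0.295). Endochitinase 2 (Cluster-16487.111793) fell by −1.83 ± 0.16 and the D. kaki chitinase (Cluster-16487.111174) by −1.96 ± 0.20. A group with so many of the reads lowers the FPKM of all other unigenes in CK. An FPKM ratio between the groups is therefore larger than the TMM-scaled change. A different endochitinase (Cluster-16487.28111) was a DEG in the other direction, from 1, 0.66 and 0.62 FPKM to 33.2, 25.3 and 29.4 FPKM (5.11 ± 0.30, adjusted p = 0.0178) after 7.02 at 1 d.

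The 10 unigenes with the highest log2 fold changes, by the rule for named unigenes, were of several kinds, and 4 had no count in CK. One was the Hsp20-domain unigene above. An osmotin-like protein (Cluster-16487.28385), of the antifungal thaumatin family, was at 0 FPKM in CK and 23.6, 30.9 and 14 FPKM in CO2+1-MCP, at least 273-fold higher against a floor of 3 counts over the CK group. A second osmotin-like unigene (Cluster-16487.28384) was at 0.07, 0.21 and 0 FPKM in CK and at 64.7, 114 and 30.4 FPKM in CO2+1-MCP (9.46 ± 1.07). Both had been up-regulated at 1 d (10.51 and 7.66). Of the DMR6-like oxygenases, a family whose Arabidopsis member DMR6 dampens immunity, Cluster-16487.16708 was at 0.04, 0.05 and 0 FPKM in CK and 83.1, 17 and 110.1 FPKM in CO2+1-MCP, and Cluster-16487.204432 and Cluster-16487.15460 had no count in CK and were at least 221-fold and 147-fold higher. Cluster-27046.0, an unnamed protein in the β-glucosidase group K01188, was at least 292-fold higher at 11.4, 6.97 and 11.9 FPKM. The rest of the 10 were Cluster-16487.197992 and Cluster-16487.24602, both hits to a cotton protein in K17302 (8.86 ± 0.90 and 8.44 ± 0.95), and the unannotated Cluster-16487.205019 (8.74 ± 0.82). Replicate B was the lowest treated library in 8 of these 10, and the highest for the osmotin-like pair. A miraculin-like unigene (Cluster-16487.100232), a protease inhibitor family, went from 1.67, 1.49 and 3.16 FPKM to 209.8, 227 and 196 FPKM (6.50 ± 0.39), and was picked after its values were seen.

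Down-regulated unigenes were few. Among DEGs that averaged at least 10 FPKM in either group the lowest was talisin (Cluster-16487.53513), a hit to a protein of Talisia esculenta, at 65.5, 60.8 and 58.6 FPKM in CK and 5.42, 4.31 and 3.43 FPKM in CO2+1-MCP (−3.93 ± 0.27, adjusted p = 0.0178). A GATA transcription factor 4-like unigene (Cluster-16487.114920) went from 42, 52.9 and 53.5 FPKM to 7.4, 8.05 and 6.72 FPKM (−2.88 ± 0.22), a DUF1997 protein (Cluster-16487.104536) from 55.5, 57.5 and 50.9 FPKM to 9, 6.47 and 9.18 FPKM (−2.87 ± 0.21), and a WAT1-related transporter (Cluster-16487.161932) from 28.6, 26.3 and 20.6 FPKM to 4.57, 4.55 and 4.3 FPKM (−2.63 ± 0.23). These last 3 had not differed at 1 d (−0.51, −0.01 and 0.04), and the interaction was negative in each (−2.42, −2.92 and −2.72). The fifth was annotated GMP synthase (Cluster-16487.112958, −2.32 ± 0.17). Below that FPKM minimum, 4 of the 16 DEGs had no count in CO2+1-MCP and were at least 101-fold to at least 155-fold lower, against a floor of 3 counts over the group. In the 21-library fit 5 more were named by the same rule: the expansin above, a ubiquitin-40S ribosomal S27a unigene (Cluster-16487.8938, −4.63), a 60S ribosomal L36 unigene (Cluster-12980.0, −4.06), a hypothetical protein (Cluster-16487.164728, −3.36) and an unannotated unigene (Cluster-16487.31713, −3.15), the last 4 with adjusted p of 0.066 to 0.0714 in 6 libraries. The hypothetical protein had been 8.81 higher at 1 d. A pyridoxal phosphate-dependent decarboxylase (Cluster-16487.161480) reversed likewise, from 5.53 at 1 d to −2.88 ± 0.33 at 4 d, and so did the NADP+ alcohol dehydrogenase group (K00002, chosen after its values were seen), at 14.6, 17.1 and 21.7 CPM in CK and 3.05, 5.28 and 2.13 CPM in CO2+1-MCP (−2.39 ± 0.34, adjusted p = 0.00851, and 0.0509 to 0.052 without a CK library) after 3.04 ± 0.60.

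Among other hormones, the gene that destroys abscisic acid was lower, and 1 of the 5 KO groups of the jasmonate list was higher. ABA 8'-hydroxylase (K09843) was at 34.9, 32.6 and 32.5 CPM in CK and 5.54, 4.02 and 3.94 CPM in CO2+1-MCP. The fall of −2.88 ± 0.17 (adjusted p = 0.00148) held whichever library was left out and exceeded that of 1 d (−1.59 ± 0.30, interaction −1.35 ± 0.36, adjusted p = 0.0104). Its unigene (Cluster-16487.85570) was a DEG at −3.22 ± 0.30. The other ABA groups, 9-cis-epoxycarotenoid dioxygenase, PYR/PYL receptors and protein phosphatase 2C, lay between −0.13 and 0.12.

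Allene oxide cyclase (K10525), which forms the jasmonate ring, rose from 66.7, 88 and 94.2 CPM to 178, 331.5 and 162 CPM (1.43 ± 0.30, adjusted p = 0.0255) after −0.68 ± 0.19 at 1 d. It was the only call among 5 KO groups of the jasmonate list, where 9.21% of all KO groups rose. Allene oxide synthase of that list was at 0.69 (edgeR adjusted p = 0.0574). The following were chosen after their values were seen. Jasmonate O-methyltransferase (K08241), which makes the volatile methyl jasmonate, was low in every CK library and high in every treated one: 1.16, 0.45 and 0.55 CPM in CK and 45.8, 12.4 and 71.2 CPM in CO2+1-MCP (5.90 ± 0.80, adjusted p = 0.00752), with 0.83 ± 0.58 at 1 d and 5.30 ± 1.40 in CO2 alone. Hydroperoxide lyase (K10528), which makes green leaf aldehydes from the same precursor, rose from 6.11, 6.24 and 6.73 CPM to 44.6, 23 and 50.5 CPM (2.63 ± 0.31, adjusted p = 0.00552). TIFY 5A (Cluster-16487.96740), of the jasmonate-induced repressor family JAZ, was at 0.59, 0.72 and 0.44 FPKM in CK and 46.5, 38.3 and 60.7 FPKM in CO2+1-MCP (6.20 ± 0.31), and its second unigene (Cluster-16487.153701) rose by 6.42 ± 0.47. An aldehyde oxidase unigene (Cluster-16487.172984) rose by 7.73 ± 0.82. IAA-amino acid hydrolase (K14664), which frees auxin from conjugates, rose from 423, 455 and 431 CPM to 1059, 887 and 1129.5 CPM (1.23 ± 0.12, adjusted p = 0.00417), with an ILR1-like unigene up-regulated at 32.2, 32.4 and 34.1 FPKM against 5 to 5.21 FPKM (Cluster-16487.80620). Without a CK library the adjusted p of these KO groups reached 0.0509 (hydroperoxide lyase, IAA-amino acid hydrolase), 0.0538 (jasmonate O-methyltransferase) and 0.128 (allene oxide cyclase).

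Aquaporins differed by kind. Tonoplast intrinsic proteins (TIP, K09873), water channels of the vacuole membrane, were at 1873, 2161 and 2096 CPM in CK and 6544, 8286 and 5896 CPM in CO2+1-MCP. The rise of 1.76 ± 0.16 (adjusted p = 0.00342) held whichever library was left out and was larger than at 1 d (0.61 ± 0.16, interaction 1.09 ± 0.22, adjusted p = 0.00193). The main unigene, TIP1-1 (Cluster-16487.109477), went from 582, 655 and 659 FPKM to 2456, 2376 and 2141 FPKM. Cluster-16487.112318 (2.91 ± 0.24) was the only DEG among 69 tested aquaporin unigenes, where 0.177% of all unigenes were up-regulated. The nodulin-26-like group NIP (K09874) rose by 0.80 ± 0.09 (adjusted p = 0.00521, 0.0509 without CK A and 0.168 in the 21-library fit) after −0.71 ± 0.14 at 1 d, with 4.89 ± 0.66 in CO2 alone. Plasma membrane PIP (K09872), the most abundant, overlapped between groups at 11501 to 12984 CPM in CK and 10214 to 13880.4 CPM in CO2+1-MCP (−0.07 ± 0.15).

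Some single KO groups of other paths were as clear, and these were chosen after their values were seen. α-Amylase (K01176), which starts starch breakdown, was at 2288, 2338 and 2361 CPM in CK and 1163, 931 and 1119 CPM in CO2+1-MCP (−1.12 ± 0.11, adjusted p = 0.00434, and 0.0509 without CK A). FKF1 (K12116), a blue-light receptor of the circadian clock, fell from 1021, 942.5 and 831 CPM to 279, 360.2 and 265 CPM (−1.63 ± 0.15, adjusted p = 0.00413) with no call at 1 d (0.41 ± 0.18), and it was called whichever library was left out. Thiamine thiazole synthase (K03146) rose by 1.16 ± 0.29 (adjusted p = 0.0421, and at most 0.165 without CK A), with the highest value, 16742 CPM, in replicate B. Glycerophosphodiester phosphodiesterase (K18696), which splits glycerophosphodiesters, had the highest log2 fold change of all KO groups at 1 d, 8.70 ± 0.27. At 4 d it was down to 0.96 ± 0.21 (edgeR adjusted p = 0.0294, and at most 0.13 without CK A).

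Of the lists for cells other than flesh, summed FPKM differed without overlap for epidermis and for hits outside plants, but not for seed storage. The list for epidermis and cuticle summed to 772 to 822 FPKM in CK and 1108 to 1181 FPKM in CO2+1-MCP. Of its 4 KO groups, glycerol-3-phosphate acyltransferase (2.48) and aldehyde decarbonylase (1.86, edgeR adjusted p = 0.0881 with the replicate block) rose, where 9.21% of all KO groups rose. Of its 75 tested unigenes none was a DEG (median 0.31), near the overall share of 0.177% up-regulated and 0.0249% down-regulated. Seed storage proteins summed to 3297 to 3997 FPKM in CK and 2989 to 3744 FPKM in CO2+1-MCP, which overlapped. A 13S globulin (Cluster-16487.188342) was their single DEG, at 4.29, 2.49 and 2.53 FPKM in CK and 50.6, 44.1 and 59.1 FPKM in CO2+1-MCP. Unigenes whose NR hit was not a plant summed to 469 to 619 FPKM in CK and to less in each CO2+1-MCP library (lowest 309 FPKM), with 57 tested, none a DEG and a median of −0.98. The part of these differences in the results above was not tested. In bulk flesh, fewer cells of a type and less RNA per cell cannot be told apart.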

How the data were processed

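RNA from persimmon flesh was sequenced as paired ends and assembled de novo with Trinity, and RSEM is named in the submitters' processing notes. The authors deposited, for each library, expected counts per unigene (not normalized, 24.5% to 37.6% of a library's values not whole) and FPKM, with an annotation of the unigenes. The tool versions are not given in the sources used here. Expected counts were rounded to whole numbers. The tests were those of edgeR 4.0.16 (R 4.3.3; filterByExpr, TMM factors, quasi-likelihood F test, Benjamini–Hochberg adjustment), with the study's limits for DEGs (adjusted p under 0.05, more than 5-fold). KO groups, counts summed per KO ID and called at an adjusted p below 0.05 with no fold limit, were chosen after seeing the data, and so was the fit without a normalization factor. KO IDs covered 51.2% to 56.3% of the counts. Standard errors are the log2 fold change divided by the square root of F. Library totals at 4 d were 15261878 to 24943140 counts, and p-values measure the spread between 3 libraries a group.

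Groups came from the labels. The members and the 50 functional lists were chosen with earlier results of these data known. Named unigenes were up to 10 in each direction among non-overlapping DEGs that averaged 10 FPKM or more in either group, up to 3 per list by p and the most abundant (mean FPKM of at least 5 for the former), D. kaki hits to genes the study names, and up to 5 in each direction at 1 d (mean FPKM of at least 50). Others are marked where they appear. Alternatives were DESeq2 1.42.0, limma voom 3.58.1, other scalings and filters, 9 or 21 libraries in the fit, a replicate block, a test against the 5-fold threshold, sums per NR description, and leaving out each library. The deviations of same-lettered libraries correlated at 0.007, 0.071 and 0.091 over unigenes and at 0.127, 0.402 and 0.382 over KO groups. Only the latter were above 0.1, the limit used here, and a blocked adjusted p is given beside each KO call it changes. Unigenes varied more between libraries than KO groups, so their low values do not exclude a pairing by letter. The 4 d comparison by edgeR, over unigenes and over KO groups, was tested on simulated data. No sequence is printed, since none was used here.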

Additional observations from a re-analysis of the deposited data

Results flagged for a closer look

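The effect of CO2+1-MCP differed between 1 d and 4 d in 75 of the KO groups and unigenes named in the text, by the interaction contrast of edgeR in 12 libraries at an adjusted p below 0.05. The values are log2 differences, the effect at 4 d minus that at 1 d, and no explanation of them was tested. Groups of 3 libraries are too small for a test of single outlying libraries.

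Among KO groups the effect moved down with −5.68 for pyruvate decarboxylase, −4.50 for class-P alcohol dehydrogenase, −2.87 for plant cysteine oxidase, −2.20 for aldolase, −2.50 for glyceraldehyde 3-phosphate dehydrogenase, −1.94 for phosphoglycerate kinase, −1.59 for triosephosphate isomerase, −1.09 for enolase, −1.25 for pyrophosphate-dependent phosphofructokinase and −2.33 for RAV-like factor. Further values below 0 were −2.11 for EREBP-like factor, −0.81 for HSP20, −1.22 for HSP90, −1.11 for glutathione S-transferase, −1.35 for ABA 8'-hydroxylase, −2.10 for FKF1, −1.07 for fructokinase, −2.27 for WRKY33, −5.50 for NADP+ alcohol dehydrogenase, −1.28 for L-galactose dehydrogenase, −1.47 for DNA polymerase delta subunit 3 and −7.80 for glycerophosphodiester phosphodiesterase. The effect moved up in 19 KO groups: 0.67 for ACC synthase, 1.48 for ethylene receptor, 3.71 for pectate lyase, 2.45 for mannanase, 1.73 for leucoanthocyanidin reductase, 1.66 for 4-coumarate--CoA ligase, 1.39 for caffeic acid O-methyltransferase, 2.88 for GDP-L-galactose phosphorylase and 0.57 for monodehydroascorbate reductase. The others were 2.04 for allene oxide cyclase, 2.99 for hydroperoxide lyase, 5.02 for jasmonate O-methyltransferase, 1.34 for IAA-amino acid hydrolase, 1.09 for aquaporin TIP, 1.45 for aquaporin NIP, 0.55 for alpha-amylase, 1.47 for thiamine thiazole synthase, 0.70 for glutamate decarboxylase and 3.07 for alpha-N-arabinofuranosidase.

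Among unigenes the difference was negative for 12: −2.42 for GATA factor 4-like, −2.92 for the DUF1997 protein, −2.72 for the WAT1-related transporter, −12.2 for the hypothetical protein Cluster-16487.164728, −6.04 for the unannotated unigene Cluster-16487.31713, −1.96 for endochitinase Cluster-16487.28111, −8.46 for the pyridoxal phosphate-dependent decarboxylase, −2.08 for WRKY 70, −2.76 for phosphoglycerate kinase Cluster-16487.110794, −1.26 for heat stress factor A-1, −4.11 for non-symbiotic hemoglobin and −3.61 for plant cysteine oxidase Cluster-16487.93403. It was positive for the unigenes lowest at 1 d, with 6.11 for Cluster-16487.119418, 6.34 for pectate lyase 18, 6.34 for Cluster-16487.85537, 8.14 for Cluster-16487.114049 and 9.97 for Cluster-16487.85535. The other positive differences were 5.66 for the Hsp20-domain unigene, 3.10 for expansin-A8, 2.09 for ethylene receptor 3, 2.95 for the D. kaki XTH, 4.49 for XTH 10, 2.99 for polygalacturonase Cluster-16487.107096, 1.61 for leucoanthocyanidin reductase and 2.60 for glutathione S-transferase Cluster-16487.103926. Further positive differences were 3.65 for 13S globulin, 1.06 for TIP1-1 (Cluster-16487.109477), 2.98 for TIP1-1 (Cluster-16487.112318), 4.79 for rhamnogalacturonate lyase Cluster-16487.16332, 5.37 for cationic peroxidase Cluster-16487.42992, 6.44 for TIFY 5A (Cluster-16487.96740), 5.20 for TIFY 5A (Cluster-16487.153701), 9.06 for aldehyde oxidase and 3.07 for the ILR1-like hydrolase.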

How the results depend on the processing

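Which genes passed at 4 d changed with the test, the libraries fitted and single libraries left out, and the direction of the KO groups called did not. Those groups had been chosen from the same libraries, so their unchanged direction adds no support. The DEGs (114 higher, 16 lower) numbered 678 and 542 with DESeq2, 461 and 239 with limma voom, 476 and 97 with 21 libraries in the fit, 347 and 131 without a filter on low counts, 263 and 61 without a normalization factor, 192 and 131 with sums per NR description, and 9 and 4 with sums per KO ID. With 9 libraries in the fit 10 were lower, and with a fold limit of 2 it was 32. Against the 5-fold threshold itself edgeR gave 0 and 0 (802 with an unadjusted p under 0.05; DESeq2 was not run against it). Leaving out a library gave 0 to 514 higher and 0 to 525 lower, with 0 in each direction for all but CO2+1-MCP replicate B and 5308 to 8454 at an unadjusted p under 0.05. DEGs in functional lists (25 higher, 2 lower) were 112 and 86 with DESeq2, 89 and 27 with limma voom, 104 and 14 with 21 libraries, 69 and 9 without a filter, 51 and 5 without a normalization factor, 40 and 37 by NR description, 3 and 1 by KO ID, 0 and 0 against the 5-fold threshold, and 0 to 99 and 0 to 72 without a library, while 9 libraries gave 1 lower and a 2-fold limit 7. The 21-library counts of 476 and 97 compare with 114 and 16 from 6 libraries. With an FPKM minimum of 50, 54 DEGs were higher and 3 lower, and with 5, 9 were lower (99 and 5 at 10).

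KO groups (302 higher, 209 lower) were 498 and 387 with DESeq2, 900 and 793 with limma voom, 105 and 65 with 9 libraries, 1068 and 84 without a normalization factor, 69 and 42 with a 2-fold limit, and 10 to 771 and 7 to 783 without a library. EREBP-like factor (K09286) went from 0.01 to −0.22 (edgeR adjusted p = 0.0304) without CO2+1-MCP replicate B, and leaving out any library gave −0.22 to 0.14. At 1 d, no filter gave 8723 and 7693 DEGs. The change between days was 5869 up and 4644 down with DESeq2, and 2291 to 5454 and 1901 to 3806 without a library. The cause of these differences was not tested.

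With the replicate block, 0 and 0 unigene DEGs were left at 4 d, in lists too (edgeR, 5962 at an unadjusted p below 0.05, lowest adjusted p 0.298), and 2807 were lower at 1 d. Same-lettered libraries correlated at 0.007 to 0.091 over unigenes and at 0.127 to 0.402 over KO groups. Whether the letters pair the libraries was not settled. Of the 511 KO group calls, 380 were kept with the block.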

Other observations

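KO groups of some processes outside the lists were gathered after their values were seen, so their counts are descriptions. Of 35 KO groups of the 20S and 26S proteasome, which degrades ubiquitin-tagged proteins, 22 rose and 2 fell at 4 d. Of all KO groups 9.21% rose and 6.37% fell. The median log2 fold change of the 35 was 0.62 (0.65 at 1 d), and they include a maturation protein, which is not a subunit. The regulatory subunit N11 (K03030) rose by 0.87 ± 0.09 and the core subunit alpha 1 (K02730) by 1.13 ± 0.15 (edgeR adjusted p = 0.00434 and 0.00689). With CK A left out none of the proteasome calls remained, and without CO2+1-MCP B there were 28 higher and 2 lower. Of 56 KO groups gathered for the respiratory complexes 9 rose and 1 fell (median 0.41), and without CO2+1-MCP B 24 rose and 7 fell. These 56 include assembly factors of cytochrome c oxidase, which are not subunits. The group that fell was an F-type ATPase subunit alpha (K02111, −0.77 ± 0.17). The descriptions of the F-type ATPase groups do not tell mitochondrial from plastid forms. Of 74 cytosolic ribosomal proteins 5 rose and none fell (median 0.45), a share of rises no larger than the 9.21% over all KO groups. With the replicate block 15 rose, and without CO2+1-MCP B 31 rose and 12 fell.

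Photosystem subunits leaned towards lower values, and DNA replication proteins did so in their calls but hardly in their median. These were gathered in the same way, so their counts are descriptions too. Of all KO groups 6.37% fell and 9.21% rose. Of 22 photosystem groups 5 fell and none rose (median −0.62, 14 lower without CO2+1-MCP B), among them oxygen-evolving enhancer protein 1 (K02716, −1.98 ± 0.27, edgeR adjusted p = 0.00772). Of 29 DNA replication groups 5 fell and 1 rose (median −0.12, 10 lower and 3 higher without CO2+1-MCP B), among them DNA polymerase delta subunit 3 (K03504, −1.39 ± 0.17, adjusted p = 0.00584), which had been at 0.02 at 1 d. None of these calls was left without CK A. Without a normalization factor the medians were 0.92 for the proteasome, 0.69 for the respiratory complexes, 0.73 for the ribosome, −0.35 for the photosystems and 0.18 for DNA replication, the last on the other side of 0.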
